A study of Caenorhabditis elegans with 12 samples.

Results

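The major sperm protein (msp) genes of Caenorhabditis elegans were followed through whole worms of 4 genotypes. The members are the protein-coding genes in the count table whose name is msp followed by a number, 31 of the 46739 genes in the table. The libraries came from worms labelled spr-4;spr-3;daf-2 (called triple-labelled below), daf-2, spr-4;spr-3 (called double-labelled below) and N2, the wild-type laboratory strain, with 3 biological replicates each and 12 libraries in all. Each replicate was RNA from 100 whole worms taken 24 h after the last larval stage, which the labels call day 2. The labels name no alleles and no treatment, and no background mutation is given for N2. daf-2 encodes the insulin and IGF-1 receptor of the worm, whose mutants are long-lived, and spr-3 and spr-4 encode zinc finger proteins that resemble REST, a mammalian repressor of neuronal genes. The design compares worms labelled daf-2 with and without the spr labels, beside the spr labels alone and N2.

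Major sperm proteins are small cytoskeletal proteins that nematode sperm polymerise into the filaments of their crawling pseudopod. They are also released from sperm, and the released protein signals to oocytes and to the surrounding gonadal sheath, which starts oocyte maturation and sheath contraction. A hermaphrodite makes its sperm in a limited period before its germ line turns to oocytes, and msp genes are transcribed in the germ cells that become sperm. The genome carries many msp copies with almost the same sequence, and how reads that match several copies were counted is not given in the sources used here. Values of single members are therefore uncertain as to which copy the reads came from. The sum over all members does not depend on how the counted reads were divided among them. It would still miss reads left out for matching several copies, and would repeat reads counted for each copy.

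Library depth was 30837773 to 48894725 counted reads, and no library was left out. The spr-3 transcript was at 16.6 ± 1.12 CPM (counts scaled to a library total of 1000000) in the triple-labelled libraries, 17.4 ± 1.79 in daf-2, 8.90 ± 0.761 in double-labelled and 17.8 ± 1.18 in N2 (SD, n = 3). It was lower in double-labelled than in N2 worms (log2 fold change -0.91, edgeR adjusted p = 3.2e-08) but did not pass the test between triple-labelled and daf-2 worms (-0.10, edgeR adjusted p = 0.338). spr-4 passed in both comparisons, at -0.25 (edgeR adjusted p = 0.000119) and -0.21 (edgeR adjusted p = 0.000565). The daf-2 transcript was at -0.13 in daf-2 against N2 (edgeR adjusted p = 0.0979, but 0.0118 without daf-2 replicate 2). Transcript level need not change with a mutation, and the genotypes were taken from the labels.

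All 31 msp genes lie on 2 chromosomes in the WBcel235 annotation, 13 on chromosome II and 18 on chromosome IV, and every one has a single exon with no annotated untranslated region. A coding length of 381 bp, or 127 codons, is shared by 28 of them. Joining neighbours less than 300000 bp apart gave 4 clusters. The first on II holds 10 genes between positions 4785898 and 5200180, and the second on II holds 3 genes between 5797065 and 5810330. The first on IV holds 9 genes between 5055631 and 5316906, and the second on IV holds 9 genes between 9689015 and 10143740. Within introns of other genes lie 4 members: msp-31 in aagr-2 and msp-45 in srb-13 on the same strand, and msp-33 in gst-9 and msp-38 in dhs-12 on the opposite strand.

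The summed msp level was highest in N2 and lowest in daf-2, and worms with the spr labels lay between. The 31 genes together had 46.9, 24.8 and 41.6 CPM in the 3 triple-labelled libraries. The sum was 8.59, 5.35 and 5.91 CPM in daf-2 libraries, 54.2, 63.3 and 80.8 CPM in double-labelled libraries, and 231, 194 and 164 CPM in N2 libraries. No group overlapped another in this sum. The means were 37.8 ± 11.6, 6.62 ± 1.73, 66.1 ± 13.5 and 196 ± 33.5 CPM in that order (SD, n = 3). In reads, the family had 4578 counts over the triple-labelled libraries, 740 in daf-2, 6702 in double-labelled and 23489 in N2. In RNA of whole worms, fewer sperm-forming cells and less msp RNA per cell cannot be told apart.

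**Figure D1:**
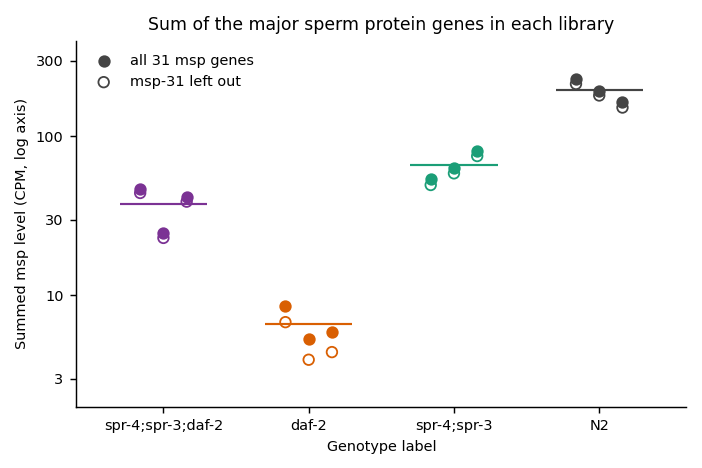
Summed level of the 31 msp genes in each of the 12 libraries, in CPM on a log axis, by genotype label. Filled points are the sum over all members, open points the sum without msp-31 and lines the group means. The daf-2 libraries lie between 5.35 and 8.59 CPM, below every other library, and the N2 libraries lie between 164 and 231 CPM.

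A fit of the members summed into a single row gave a log2 fold change of -4.83 ± 0.32 (SE) for daf-2 against N2 and 2.47 ± 0.33 for triple-labelled against daf-2. It gave -1.48 ± 0.25 for double-labelled against N2, -0.88 ± 0.26 for triple-labelled against double-labelled and -2.36 ± 0.26 for triple-labelled against N2. As ratios of group means the daf-2 worms had 3.37% of the N2 level, the double-labelled worms 33.7% and the triple-labelled worms 19.2%. The triple-labelled worms had 5.71 times the daf-2 level and 57.1% of the double-labelled level.

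Of the 31 members, 27 had enough reads for the test. The 4 left out were msp-32, msp-58, msp-63 and msp-74. Each of the 27 exceeded the filter of 0.278 CPM in all 3 N2 and all 3 double-labelled libraries, 25 did so in all 3 triple-labelled libraries and 2 in all 3 daf-2 libraries. The filter thus passed most members on their levels outside daf-2, so the counts below describe the members and are no support for a difference. The 27 have the same coding length, which lets their CPM levels be compared with each other per length. Their mean levels ran from 0.199 to 3.22 CPM in triple-labelled, 0.0179 to 1.57 in daf-2, 0.456 to 5.2 in double-labelled and 1.73 to 14 CPM in N2 worms. In all 27 the group means had the order of the sum, with N2 highest, then double-labelled, triple-labelled and daf-2.

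**Figure D2:**
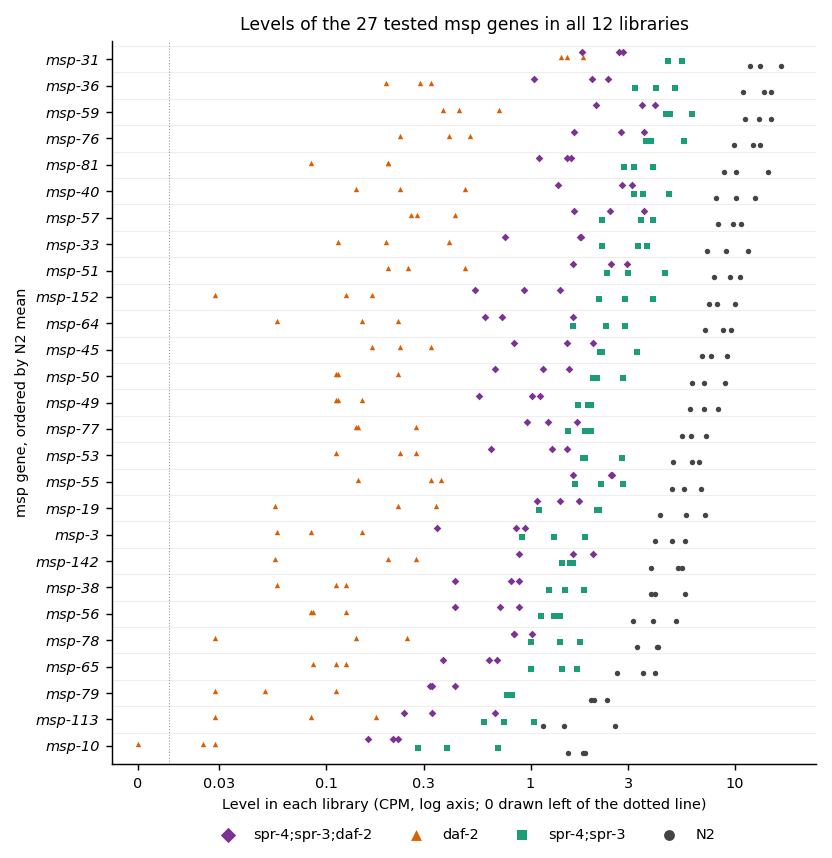
Level of each of the 27 tested msp genes in all 12 libraries, in CPM on a log axis, with genes ordered by their N2 mean. The daf-2 points stand at the left of every row, and only in the top row (msp-31) do they reach the triple-labelled points.

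In daf-2 worms every tested msp gene fell. All 27 were called lower than in N2 at an adjusted p below 0.05, against 26.9% of the 15764 genes tested, and each was over 2-fold lower, against 8.48% of all genes. The daf-2 and N2 libraries did not overlap for any of the 27, against 34.8% of all genes lower without overlap. The median log2 fold change of the 27 was -4.96, with a range of -6.29 to -3.09, beside a median of -0.00 over all genes. The least certain of the 27 calls had an edgeR adjusted p of 3.2e-06.

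The member with the most negative fold change was msp-10 (WBGene00003425, IV, 9837649 to 9838032, plus strand). It had 0.025, 0.0287 and 0 CPM in daf-2 libraries, against 1.84, 1.52 and 1.81 CPM in N2 libraries. That is 2 reads over the daf-2 libraries and 205 over the N2 libraries, so N2 was 96.4-fold higher with a 95% counting interval of 26.3 to 801. Its fitted log2 fold change was -6.29 ± 0.468 (edgeR adjusted p = 2.49e-10). Next came msp-152 (WBGene00003470, II, 4933027 to 4933410, plus strand), with 0.125, 0.0287 and 0.168 CPM in daf-2, against 9.96, 8.15 and 7.42 CPM in N2. Its log2 fold change was -6.20 ± 0.388 (edgeR adjusted p = 7.06e-09). Both genes were close to the detection limit in daf-2 worms, but they stood at different levels in N2.

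Among the most abundant members, msp-36 (WBGene00003432, IV, 10095433 to 10095816, plus strand) had 0.325, 0.287 and 0.196 CPM in daf-2 libraries, against 15, 13.8 and 10.9 CPM in N2. Its log2 fold change was -5.54 ± 0.304 (edgeR adjusted p = 2.31e-09). msp-59 (WBGene00003452, IV, 5312728 to 5313111, minus strand) had 0.701, 0.374 and 0.448 CPM in daf-2 and 15, 13.1 and 11.2 CPM in N2, and fell by 4.61 ± 0.261 on the log2 scale (edgeR adjusted p = 2.66e-09). The 2 genes had almost the same N2 level and differed in daf-2 worms, where msp-59 was higher in each library.

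msp-79 (WBGene00003466, IV, 9766771 to 9767154, minus strand), one of the least abundant members, was at the family median with -4.96 ± 0.310 (edgeR adjusted p = 1.66e-11). It had 0.331, 0.428 and 0.324 CPM in triple-labelled, 0.0501, 0.0287 and 0.112 in daf-2, 0.811, 0.765 and 0.81 in double-labelled and 2.37, 2.05 and 1.98 CPM in N2 libraries, and no genotype overlapped another.

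The smallest falls were those of msp-113 and msp-31. msp-113 (WBGene00003468, IV, 5297962 to 5298345, plus strand) had 0.175, 0.0287 and 0.0841 CPM in daf-2, against 2.58, 1.46 and 1.15 CPM in N2 (log2 fold change -4.06 ± 0.501, edgeR adjusted p = 3.2e-06). msp-31 (WBGene00003429, II, 4916179 to 4916562, minus strand) had 1.80, 1.41 and 1.51 CPM in daf-2, against 16.7, 13.3 and 11.9 CPM in N2 (log2 fold change -3.09 ± 0.160, edgeR adjusted p = 5.24e-12). msp-31 was the most abundant member in N2 and stood apart from the others in daf-2 worms, where it kept 11.3% of its N2 level while the median member kept 2.98%.

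In triple-labelled worms every tested msp gene rose above its daf-2 level, and none reached N2. All 27 were called higher than in daf-2, against 26.1% of all genes, and 26 were over 2-fold higher, against 7.67% of all genes. The 26 were also higher without overlap of the libraries, against 31.6% of all genes, and the exception in both counts was msp-31. The median log2 fold change was 2.72, with a range of 0.60 to 3.22, beside 0.02 over all genes. As shares of N2, the triple-labelled means ran from 11.2% to 37.9% with a median of 17.5%, against 1.04% to 11.3% with a median of 2.98% in daf-2.

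The largest rises were those of msp-10 and msp-152. msp-10 had 0.213, 0.161 and 0.225 CPM in triple-labelled libraries, against 0.025, 0.0287 and 0 CPM in daf-2. Its log2 fold change was 3.22 ± 0.742 (edgeR adjusted p = 0.0014), from 24 reads against 2. msp-152 had 1.39, 0.535 and 0.924 CPM in triple-labelled libraries, against 0.125, 0.0287 and 0.168 CPM in daf-2 (3.08 ± 0.565, edgeR adjusted p = 0.000588). The abundant members msp-36 and msp-59 rose by 2.70 ± 0.404 (edgeR adjusted p = 0.000123) and 2.61 ± 0.309 (edgeR adjusted p = 1.46e-05). Their triple-labelled levels were 2.39, 1.04 and 2.00 CPM for msp-36 and 4.06, 2.09 and 3.52 CPM for msp-59.

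The 2 smallest rises were those of msp-31 and msp-113, and both rest on few libraries. msp-31 had 2.84, 1.79 and 2.70 CPM in triple-labelled libraries, against 1.80, 1.41 and 1.51 CPM in daf-2, so that the groups overlapped. Its log2 fold change of 0.60 ± 0.194 passed the test (edgeR adjusted p = 0.0161), but the call was lost without daf-2 replicate 2 (0.0664) or 3 (0.0645) or triple-labelled replicate 1 (0.0816) or 3 (0.0617), all edgeR adjusted p. msp-113 had 0.331, 0.241 and 0.674 CPM in triple-labelled and 0.175, 0.0287 and 0.0841 CPM in daf-2 libraries (2.00 ± 0.653, edgeR adjusted p = 0.0196). Its call was lost without daf-2 replicate 2 (0.0757) or 3 (0.0736) or triple-labelled replicate 3 (0.1), all edgeR adjusted p.

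The spr labels without daf-2 went with lower msp levels. All 27 tested members fell in double-labelled worms relative to N2, against 21.9% of all genes called lower. Each of the 27 was over 2-fold lower, against 5.06% of all genes, and none overlapped, against 37.7% lower without overlap. The median log2 fold change was -1.49, beside 0.02 over all genes. The members lay within a narrow range of -1.85 to -1.07, and their means ran from 26.1% to 45.9% of N2 with a median of 33.4%.

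The largest falls in double-labelled worms were those of msp-49 and msp-10. msp-49 (WBGene00003442, II, 5194366 to 5194749, plus strand) had 1.91, 1.70 and 1.97 CPM in double-labelled libraries, against 8.24, 7.09 and 6.02 CPM in N2 (log2 fold change -1.85 ± 0.159, edgeR adjusted p = 7.89e-09). msp-10 had 0.389, 0.283 and 0.694 CPM, against 1.84, 1.52 and 1.81 CPM in N2 (-1.83 ± 0.261, edgeR adjusted p = 8.02e-06). In both genes the double-labelled libraries stood well under the N2 libraries. The 3 most abundant members lay between these and the smallest falls. msp-31 had 4.70, 4.70 and 5.53 CPM in double-labelled libraries (-1.40 ± 0.136, edgeR adjusted p = 1.24e-07 against N2). msp-36 had 3.24, 4.11 and 5.06 CPM (-1.58 ± 0.195, edgeR adjusted p = 2e-05), and msp-59 had 4.83, 4.62 and 6.16 CPM (-1.24 ± 0.182, edgeR adjusted p = 8.43e-05). All 3 stood well under their N2 libraries. At the other end, msp-65 (WBGene00003458, IV, 5316523 to 5316906, plus strand) had 1.01, 1.42 and 1.68 CPM, against 4.05, 3.55 and 2.64 CPM in N2 (-1.23 ± 0.197, edgeR adjusted p = 3.34e-05). msp-113 had 0.746, 0.595 and 1.04 CPM, against 2.58, 1.46 and 1.15 CPM in N2 (-1.07 ± 0.341, edgeR adjusted p = 0.0172). The msp-113 call was lost without N2 replicate 1 (0.148) or double-labelled replicate 1 (0.0539) or 2 (0.0801), all edgeR adjusted p, and its highest double-labelled library was just under its lowest N2 library.

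**Figure D3:**
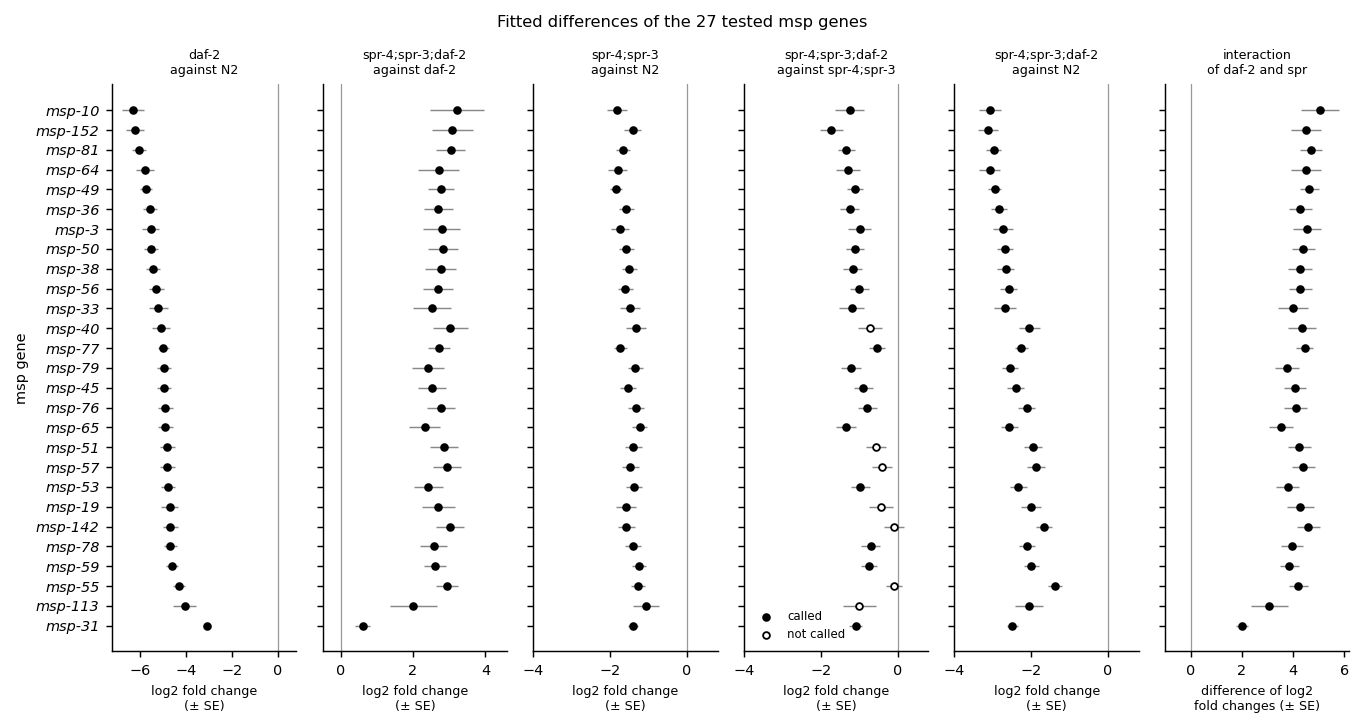
Fitted log2 fold change of each of the 27 tested msp genes with its standard error, in 5 comparisons and for the interaction, with genes ordered by daf-2 against N2. Filled points passed the test. All 27 lie left of 0 in daf-2 against N2, from -6.29 to -3.09, and right of 0 in triple-labelled against daf-2, from 0.60 to 3.22, while 7 open points in triple-labelled against double-labelled mark members that were not called.

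Between the 2 groups labelled with both spr genes, the difference that went with the daf-2 label was smaller, though spr-3 RNA in the triple-labelled libraries was at 16.6 ± 1.12 CPM, against 8.90 ± 0.761 CPM in double-labelled (SD, n = 3). Of the 27 tested members 20 were called lower in triple-labelled than in double-labelled worms, against 23.5% of all genes, and none was called higher, against 25.8%. Over 2-fold lower were 12, against 2.96% of all genes, and 18 did not overlap, against 20.1% of all genes. The median log2 fold change was -0.99, with a range of -1.72 to -0.09, beside 0.01 over all genes. The 7 members not called were msp-40, msp-51, msp-57, msp-19, msp-142, msp-55 and msp-113. A test against a 1.5-fold change called 8. The number called depended on the libraries and was 14 without double-labelled replicate 3 and 22 without triple-labelled replicate 1.

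The members differed among themselves in this comparison. msp-152 had 1.39, 0.535 and 0.924 CPM in triple-labelled and 2.17, 2.89 and 3.96 CPM in double-labelled libraries (log2 fold change -1.72 ± 0.291, edgeR adjusted p = 0.000242). msp-65 had 0.685, 0.375 and 0.624 CPM in triple-labelled and 1.01, 1.42 and 1.68 CPM in double-labelled libraries (-1.35 ± 0.256, edgeR adjusted p = 0.000174). Neither gene overlapped between the groups. By contrast, msp-142 (WBGene00003469, II, 5797927 to 5798310, plus strand) had 1.61, 0.883 and 2.02 CPM in triple-labelled and 1.43, 1.61 and 1.56 CPM in double-labelled libraries (-0.09 ± 0.258, edgeR adjusted p = 0.787). msp-55 (WBGene00003448, IV, 5055631 to 5056014, minus strand) had 2.50, 1.61 and 2.47 CPM in triple-labelled and 1.65, 2.21 and 2.84 CPM in double-labelled libraries (-0.10 ± 0.209, edgeR adjusted p = 0.726). The groups overlapped widely in both of these genes.

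The smallest called differences, those of msp-77 and msp-78, were not stable. msp-77 (WBGene00003464, IV, 9894631 to 9895014, plus strand) had 1.68, 0.963 and 1.22 CPM in triple-labelled and 1.52, 1.84 and 1.97 CPM in double-labelled libraries (-0.53 ± 0.201, edgeR adjusted p = 0.034). Its edgeR adjusted p was 0.155 without triple-labelled replicate 2, 0.0944 without triple-labelled replicate 3, 0.0913 without double-labelled replicate 2 and 0.13 without double-labelled replicate 3. msp-78 (WBGene00003465, IV, 9770046 to 9770429, plus strand) had 0.827, 0.830 and 1.02 CPM in triple-labelled and 1.01, 1.39 and 1.74 CPM in double-labelled libraries (-0.70 ± 0.244, edgeR adjusted p = 0.0216). Its edgeR adjusted p was 0.0699 without triple-labelled replicate 1, 0.0585 without triple-labelled replicate 2, 0.0527 without double-labelled replicate 2 and 0.15 without double-labelled replicate 3.

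The dependence of the daf-2 difference on the spr labels was tested directly as an interaction, the log2 fold change of triple-labelled against double-labelled minus that of daf-2 against N2. It passed for all 27 tested members with a positive sign, against 14.1% of all genes, and was over 2-fold for each of them, against 6.74%, and the median was 4.28 with a range of 2.00 to 5.05, beside 0.01 over all genes. The summed row gave 3.95 ± 0.41. msp-10 stood highest at 5.05 ± 0.756 (edgeR adjusted p = 4.31e-05) and msp-81 (WBGene00003467, IV, 9836034 to 9836417, minus strand) next at 4.70 ± 0.428 (edgeR adjusted p = 7.3e-07). The levels of msp-81 were 1.58, 1.1 and 1.5 CPM in triple-labelled, 0.2, 0.201 and 0.0841 CPM in daf-2, 2.85, 3.2 and 3.96 CPM in double-labelled and 14.5, 10.1 and 8.88 CPM in N2 libraries. msp-10 and msp-81 are near neighbours in the second cluster on IV. msp-113 at 3.07 ± 0.731 (edgeR adjusted p = 0.00506) and msp-31 at 2.00 ± 0.236 (edgeR adjusted p = 4.51e-06) stood lowest.

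Relative to N2, all 27 tested members were lower in triple-labelled worms, against 33.3% of all genes. Each was over 2-fold lower, against 7.66% of all genes, and none overlapped, against 36.9% lower without overlap. The median log2 fold change was -2.49, with a range of -3.12 to -1.38. msp-152 at -3.12 ± 0.257 (edgeR adjusted p = 8.05e-08) and msp-64 (WBGene00003457, II, 5809947 to 5810330, minus strand) at -3.08 ± 0.274 (edgeR adjusted p = 3.2e-07) were lowest. msp-64 had 1.61, 0.723 and 0.599 CPM in triple-labelled and 9.61, 8.77 and 7.12 CPM in N2 libraries. msp-55 at -1.38 ± 0.183 (edgeR adjusted p = 1.93e-06) and msp-142 at -1.67 ± 0.217 (edgeR adjusted p = 2.17e-06) had the smallest falls, and their N2 levels were 6.83, 5.6 and 4.92 CPM for msp-55 and 5.50, 5.29 and 3.88 CPM for msp-142.

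The makeup of the family differed between genotypes as well as its sum. msp-31 made up 24.3% ± 2.9 of all msp counts in daf-2 worms, against 7.11% ± 0.226 in N2 (SD, n = 3), and it made up 6.59% in triple-labelled and 7.64% in double-labelled worms. Its share stood apart in daf-2 only. The gene that surrounds it, aagr-2, which encodes an alpha-glucosidase, was at 229 ± 10.7 CPM in triple-labelled, 255 ± 22.7 in daf-2, 196 ± 4.07 in double-labelled and 225 ± 6.42 CPM in N2 worms. Its part in the msp-31 counts was not tested. Without msp-31 the family sum was 35.3 ± 11 CPM in triple-labelled, 5.04 ± 1.53 in daf-2, 61.2 ± 13.1 in double-labelled and 182 ± 31.1 CPM in N2 worms, and daf-2 worms then had 2.76% of the N2 level.

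By chromosomal cluster, the first cluster on II held 29.9% ± 2.07 of msp counts in triple-labelled, 43.1% ± 0.493 in daf-2, 35% ± 0.783 in double-labelled and 35.3% ± 0.632 in N2 worms. This is the cluster that contains msp-31. The first cluster on IV held 36.7% ± 0.807 in triple-labelled, 30.6% ± 1.51 in daf-2, 30.2% ± 1.02 in double-labelled and 27.8% ± 0.392 in N2 worms, so it was largest in triple-labelled worms, where it outweighed the first cluster on II. The second cluster on IV held 26.7% ± 1.42, 21.5% ± 1.54, 28.9% ± 0.348 and 30% ± 0.184 in the same genotypes. The second cluster on II, with 3 genes, held 6.68%, 4.84%, 5.92% and 6.96%. In daf-2 against N2 the summed level had a log2 fold change of -4.54 ± 0.32 and -5.32 ± 0.27 for the first and second cluster on II, and of -4.67 ± 0.33 and -5.31 ± 0.29 for the first and second on IV. In triple-labelled against daf-2 worms the log2 fold changes of the same clusters were 1.97 ± 0.36, 2.92 ± 0.33, 2.72 ± 0.36 and 2.77 ± 0.33. In daf-2 worms msp-31 made up 1.57 of the mean 2.84 CPM of the first cluster on II, against 14 of 69.4 CPM in N2. That cluster was not fitted without msp-31, so its smaller changes are not shown to hold for its other members.

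**Figure D4:**
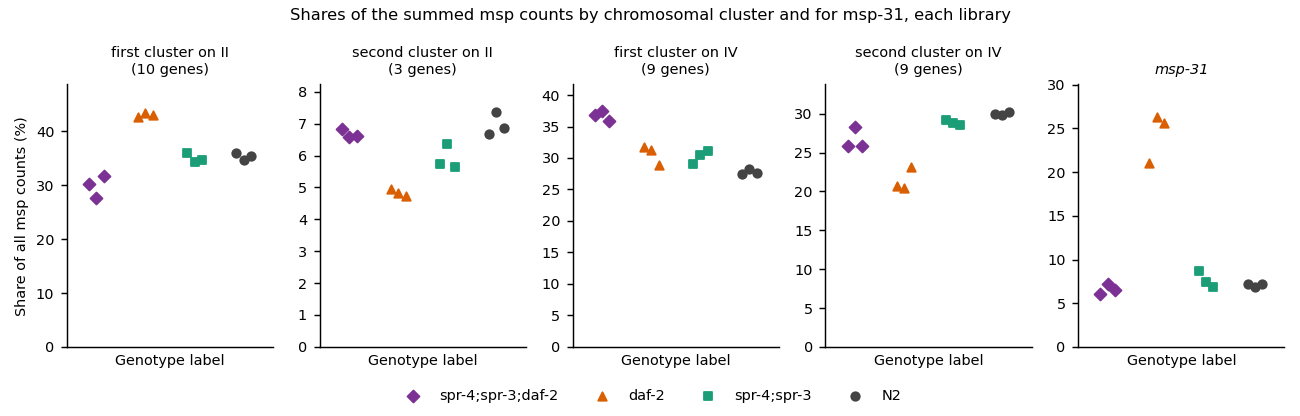
Share of all msp counts held by each of the 4 chromosomal clusters and by msp-31 alone, in percent, with 1 point per library. msp-31 holds between 21.0% and 26.3% in daf-2 libraries and between 6.85% and 7.25% in N2 libraries, and the first cluster on IV is largest in triple-labelled libraries.

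Single members shifted in share too. msp-55 held 5.92% ± 0.576 of msp counts in triple-labelled worms, against 2.95% ± 0.0614 in N2. msp-152 held 2.45% ± 0.450 in triple-labelled worms, against 4.35% ± 0.169 in N2. Near-identical copies may trade reads, so these shifts are uncertain as to the copy.

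Replicates within a genotype moved together across the family. N2 replicate 1 had the highest level of the N2 libraries for 27 of the 27 tested members, double-labelled replicate 3 for 24 of its group and daf-2 replicate 1 for 19. Triple-labelled replicate 2 had the lowest level of its group for 24 members. The family sum varied within groups by a coefficient of variation of 30.7% in triple-labelled, 26.2% in daf-2, 20.5% in double-labelled and 17.1% in N2 worms. The members are thus not independent of each other in these libraries.

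The 4 members without a test had few reads. msp-63 had 6 reads over the triple-labelled libraries, 0 in daf-2, 8 in double-labelled and 28 in N2, and relative to N2 it was at least 8.78-fold lower in daf-2 worms with 3 reads over the group as the floor. msp-74 had 0, 2, 5 and 12 reads in the same genotypes and was at least 4.08-fold lower in triple-labelled worms than in N2 on that floor. msp-32 and msp-58 had no more than 1 read in any genotype. The 4 msp pseudogenes in the table had 31, 76, 34 and 8 reads over all 12 libraries (msp-42, msp-71, msp-52 and msp-37).

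Other genes of sperm were compared with the msp family through lists of known genes. Among other proteins with an MSP domain, 12 of 18 genes in the table were tested. In daf-2 against N2, 9 were lower and 1 higher (median log2 fold change -4.24), against 26.9% and 27.4% of all genes. In triple-labelled against daf-2, 7 were higher and 2 lower (median 1.52), against 26.1% and 20.9% of all genes. In double-labelled against N2, 9 were lower and 1 higher (median -1.49), against 21.9% and 24.6% of all genes. msd-2, a gene of this list, had 0.756, 0.428 and 0.449 CPM in triple-labelled, 0.025, 0.0575 and 0.028 in daf-2, 1.01, 1.08 and 0.926 in double-labelled and 4.32, 3.64 and 3.24 CPM in N2 libraries. It fell by 6.52 ± 0.333 in daf-2 against N2 (edgeR adjusted p = 7.64e-13) and rose by 3.77 ± 0.486 in triple-labelled against daf-2 (edgeR adjusted p = 2.57e-06). msd-2 thus had the msp order of genotypes. Next in daf-2 against N2 were ssp-16 at -5.71, msd-4 at -5.18 and ssp-19 at -4.77. ssp-16 and ssp-19 had 3 reads each over the daf-2 libraries, against 197 and 102 in N2, so the size of their falls is uncertain. ssp-37, from a sperm-specific class, was the member called higher in daf-2 (0.77 ± 0.110, edgeR adjusted p = 4.11e-06). vpr-1, which is made broadly and whose MSP domain is secreted, was at -0.11 ± 0.0474 in daf-2 against N2 (edgeR adjusted p = 0.0578).

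Other sperm genes were mostly lower in daf-2 worms than in N2 and mostly higher in triple-labelled than in daf-2 worms. Of 29 tested genes of 38, 18 were lower and 3 higher in daf-2 against N2 (median -1.43), against 26.9% and 27.4% of all genes. Between triple-labelled and daf-2 worms, 20 were higher and 1 lower (median 1.15), against 26.1% and 20.9% of all genes. In double-labelled against N2, 11 were lower and 6 higher (median -0.08), against 21.9% and 24.6% of all genes. Triple-labelled against N2 worms had 14 lower and 11 higher (median -0.17), with 33.3% of all genes lower. Over all genes, 51.6% of the calls in that comparison were higher. The list was thus split there, while all 27 tested msp genes were lower. ssq-2, of a sperm-specific class, had 2.69, 2.01 and 2.65 CPM in triple-labelled, 0.526, 0.431 and 0.336 in daf-2, 5.55, 5.38 and 6.57 in double-labelled and 21.6, 15.4 and 14.2 CPM in N2 libraries. It fell by 5.24 ± 0.213 in daf-2 (edgeR adjusted p = 1.23e-12) and by 1.47 ± 0.142 in double-labelled worms (edgeR adjusted p = 2.81e-07), both against N2. Close to it in daf-2 against N2 were ssq-3 and sss-1, both at -5.07, and ssq-4 at -4.84, all called.

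smz-1, which encodes a PDZ-domain protein of sperm meiosis, had another order than the msp genes. It was not the only gene of its list to do so. It had 7.44, 7.20 and 8.69 CPM in triple-labelled, 0.826, 0.977 and 0.617 in daf-2, 8.53, 7.25 and 7.64 in double-labelled and 3.4, 3.8 and 2.58 CPM in N2 libraries. smz-1 rose by 1.35 ± 0.131 in double-labelled against N2 (edgeR adjusted p = 4.55e-08), where all 27 tested msp genes fell. It fell by 1.96 ± 0.184 in daf-2 against N2 (edgeR adjusted p = 9.91e-09) and rose by 3.23 ± 0.165 in triple-labelled against daf-2 (edgeR adjusted p = 2.21e-12). spe-8, which encodes a tyrosine kinase of sperm activation, rose by 3.41 ± 0.543 in triple-labelled against daf-2 (edgeR adjusted p = 3.53e-05), from 51 reads against 4.

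Among genes that direct germ cells to the sperm or oocyte fate or switch on msp transcription, fog-3 stood apart and the medians lay near 0. Of 18 tested in daf-2 against N2, 9 were lower and none higher (median -0.12), with 26.9% of all genes lower and 27.4% higher. Between triple-labelled and daf-2 worms, 3 of the 18 were higher and 1 lower (median -0.03), which is under the 26.1% and 20.9% of all genes. Between double-labelled and N2 worms, 2 were higher and 6 lower (median 0.02), with 24.6% of all genes higher and 21.9% lower. The call of fog-1 there (0.15, edgeR adjusted p = 0.0422) was not stable. Its edgeR adjusted p was 0.446 with total counts, 0.193 without double-labelled replicate 3 and 0.145 without N2 replicate 2. The call was also lost with DESeq2 (DESeq2 adjusted p = 0.105), without N2 replicate 1 or 3, and in further settings. The most negative in daf-2 against N2 were tra-1, which acts against the male fate, at -0.42 and fbf-2, a germ line Pumilio protein, at -0.40. fog-3, a Tob-family protein needed for the sperm fate, had 7.89, 7.49 and 8.71 CPM in triple-labelled, 1.13, 0.575 and 0.981 in daf-2, 2.27, 3.03 and 3.44 in double-labelled and 1.17, 1.18 and 0.825 CPM in N2 libraries. The daf-2 and N2 libraries overlapped for fog-3 (-0.18 ± 0.236, edgeR adjusted p = 0.542). Its rise was 3.12 ± 0.178 in triple-labelled against daf-2 (edgeR adjusted p = 1.49e-11) and 2.94 ± 0.171 in triple-labelled against N2 (edgeR adjusted p = 2.7e-12), where the msp genes fell. fog-1, a CPEB protein of the same pathway, was at 47.5 ± 3.27 CPM in triple-labelled, 28.0 ± 1.56 in daf-2, 29.9 ± 1.79 in double-labelled and 28.7 ± 0.710 CPM in N2 worms and rose by 0.73 ± 0.0578 in triple-labelled against daf-2 (edgeR adjusted p = 2.62e-09).

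spe-44 and elt-1 encode transcription factors that act on sperm genes, msp genes among them. spe-44 was at 16.2 ± 1.07 CPM in triple-labelled, 16.6 ± 0.702 in daf-2, 17.7 ± 0.993 in double-labelled and 18.4 ± 0.871 CPM in N2 worms. It was not called in daf-2 against N2 (-0.09 ± 0.0684, edgeR adjusted p = 0.27), triple-labelled against daf-2 (-0.07 ± 0.0689, 0.417) or double-labelled against N2 (0.03 ± 0.0686, 0.708). elt-1, a GATA factor, was not called in daf-2 against N2 (0.06 ± 0.0853, edgeR adjusted p = 0.587) or double-labelled against N2 (0.12 ± 0.0859, 0.251). In triple-labelled against daf-2 it was at -0.19 ± 0.0858 (edgeR adjusted p = 0.0806, and 0.0211 without daf-2 replicate 1). elt-1 also acts in the epidermis, which RNA of whole worms does not separate from the germ line.

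**Figure D5:**
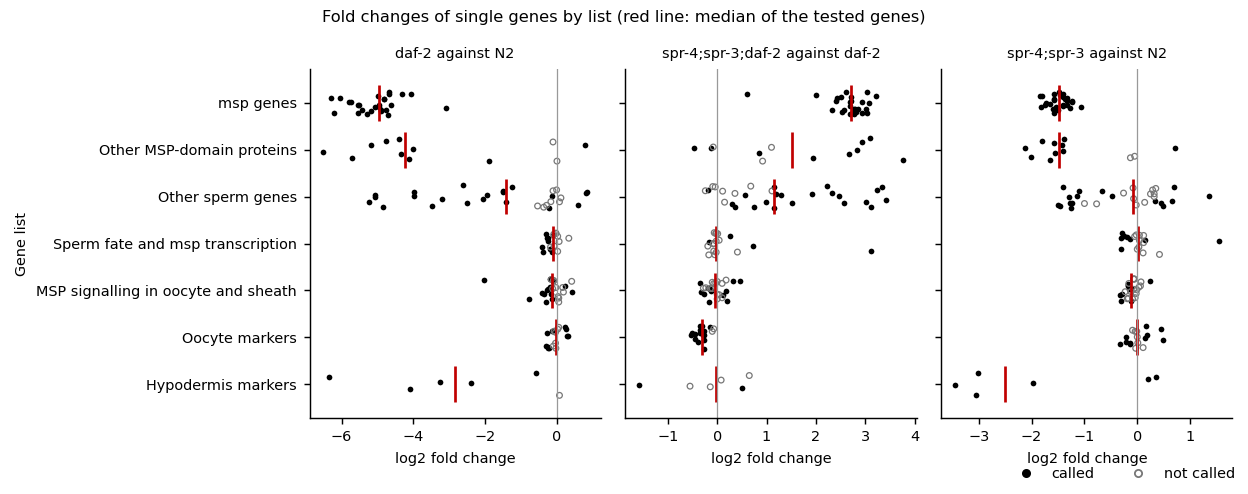
Fitted log2 fold changes of the tested genes of 7 lists in 3 comparisons, with 1 point per gene, filled where the gene passed the test, and a red line at the median of the list. The msp medians are -4.96, 2.72 and -1.49, while the lists for the sperm fate, for MSP signalling and for oocytes have medians between -0.31 and 0.02. In the same comparisons the medians are -4.24, 1.52 and -1.49 for other MSP-domain proteins and -1.43, 1.15 and -0.08 for other sperm genes. Those of the hypodermis markers are -2.83, -0.03 and -2.49.

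The partners of the released MSP signal in oocytes and sheath cells had medians near 0, with efn-3 far from the rest in daf-2 against N2. Of 26 tested in that comparison, 13 were lower and 2 higher (median -0.12), with 26.9% of all genes lower and 27.4% higher. Between triple-labelled and daf-2 worms, 7 were lower and 5 higher (median -0.05), close to the 20.9% and 26.1% of all genes. Between double-labelled and N2 worms, 9 were lower and 1 higher (median -0.12), with 21.9% of all genes lower and 24.6% higher. vab-1, the Eph receptor that binds MSP, was at 126 ± 4.66 CPM in triple-labelled, 129 ± 10.1 in daf-2, 140 ± 4.88 in double-labelled and 153 ± 5.50 CPM in N2 worms and fell by 0.20 ± 0.0484 in daf-2 against N2 (edgeR adjusted p = 0.00146). efn-2 and efn-3 encode ephrins, and efn-2 fell by 0.78 ± 0.133 in daf-2 against N2 (edgeR adjusted p = 3.68e-05). efn-3 was at 1.12 ± 0.134, 1.21 ± 0.108, 4.21 ± 0.495 and 5.11 ± 0.115 CPM in the same genotypes and fell by 2.03 ± 0.139 in daf-2 against N2 (edgeR adjusted p = 6.95e-11). In triple-labelled against daf-2 worms, where the msp genes rose, efn-3 was at -0.14 ± 0.172 (edgeR adjusted p = 0.534). gsa-1, the stimulatory G protein subunit through which sheath cells answer MSP, fell by 0.43 ± 0.0736 in daf-2 against N2 (edgeR adjusted p = 3.68e-05) and rose by 0.46 ± 0.0734 in triple-labelled against daf-2 (edgeR adjusted p = 3.35e-05).

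Markers of other cells moved with some of these comparisons, and their part in the msp differences was not tested. The 17 oocyte markers summed to between 13200 and 13800 CPM in triple-labelled, 15700 and 16500 in daf-2, 16000 and 16500 in double-labelled and 15900 and 16100 CPM in N2 libraries. In triple-labelled against daf-2, 15 of the 17 were lower and none higher (median -0.31), with 20.9% of all genes lower and 26.1% higher. rme-2, the yolk receptor of oocytes, fell there by 0.53 ± 0.0455 (edgeR adjusted p = 9.72e-09). In daf-2 against N2, 4 of the 17 were higher and 6 lower, with 27.4% of all genes higher and 26.9% lower. The oocyte sums of daf-2 and N2 libraries overlapped, unlike the msp sums. Of the 6 hypodermis markers, 5 were lower and none higher in daf-2 against N2 (median -2.83), against 26.9% and 27.4% of all genes. The marker not called was elt-3, at 18.7 ± 1.01 CPM in daf-2 and 18.5 ± 0.729 CPM in N2 worms. Triple-labelled against daf-2 worms had 1 higher and 1 lower (median -0.03), against 26.1% and 20.9% of all genes. Double-labelled against N2 worms had 2 higher and 4 lower (median -2.49), against 24.6% and 21.9% of all genes. In double-labelled against N2 the falls were -3.46 for rol-6, -3.06 for dpy-7, -3.01 for col-10 and -1.98 for bli-1, while col-19 was at 0.35, all called. rol-6, a cuticle collagen gene, was at 0.153 ± 0.0711 CPM in triple-labelled, 0.211 ± 0.149 in daf-2, 1.60 ± 0.172 in double-labelled and 18.6 ± 2.85 CPM in N2 worms. It followed the msp order from N2 through double-labelled to daf-2 worms, but in triple-labelled against daf-2 it was at -0.55 ± 0.535 (edgeR adjusted p = 0.414).

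Markers of male worms, which would bring sperm of their own, were low in every genotype. Their sum was nonetheless higher in each triple-labelled library than in any library of the other genotypes. The 10 markers summed to between 3.91 and 4.44 CPM in triple-labelled, 2.43 and 3.16 in daf-2, 2.69 and 2.79 in double-labelled and 2.39 and 2.97 CPM in N2 libraries, and 3 of them had no read in N2, none in the other genotypes. In triple-labelled against daf-2, 2 of 5 tested were higher and 1 lower, with 26.1% of all genes higher and 20.9% lower. Among the higher was mab-3, a regulator of male development, at 1.73 ± 0.261 (edgeR adjusted p = 1.87e-05). In daf-2 against N2 and in double-labelled against N2, edgeR called none of the 5 in either direction, and at an unadjusted p below 0.05 there were 0 in daf-2 and 2 in double-labelled against N2 (mab-3 and ram-5). Counts on ribosomal RNA were 0.0431% ± 0.00245 of all counts in triple-labelled, 0.166% ± 0.0158 in daf-2, 0.0405% ± 0.00489 in double-labelled and 0.0391% ± 0.00381 in N2 libraries, so they moved with the daf-2 group, and their part was not tested.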

How the data were processed

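RNA was sequenced from 12 libraries, 3 biological replicates of 4 genotypes, which the labels' replicate numbers name. The deposited table holds counts of reads per gene that the authors left unnormalized. STAR, featureCounts 1.5.1 and the WBcel235 genome were used, per the submitters' processing notes. For the strand setting, the STAR version and the treatment of reads that match several genes, the sources used here give nothing. Gene names and positions came from a WBcel235 annotation that matched 46484 of the 46739 identifiers, and 21518 genes had no read. Genes were filtered with edgeR's filterByExpr at a minimum count of 10, which left 15764, scaled by TMM and fitted over all 12 libraries with edgeR 4.0.16 in R 4.3.3 (robust quasi-likelihood, 8 residual degrees of freedom), without covariates. A gene was called at a two-sided Benjamini-Hochberg adjusted p below 0.05 over all genes tested. The standard error is the size of the log2 fold change over the root of F. CPM values are counts over the library's total count, scaled to 1000000, and counting intervals and floors cover counting error only. The procedure was tested on simulated data. Replicates differed by more than counting noise, with a chi-square per degree of freedom of 3.61 to 18.05, and none was a repeat of another. Values in every library of the groups compared were given for the sum, for the 3 most abundant members and, in each comparison, for the 2 called members with the largest and the 2 with the smallest fold change, beside msp-79 from the 3 least abundant. Genes of other lists were taken from the up to 4 called ones of the largest fold change in a comparison, and not all are printed. The genes fog-3, fog-1, spe-44 and elt-1 were always to be named, and ssp-37, vpr-1, vab-1, col-19 and elt-3 were chosen after their values were seen. The members and lists were chosen with earlier results of these data known. DESeq2 1.42.0, other scalings and filters, and leaving out each library were the alternatives. Figures were drawn with matplotlib 3.10.9.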

Additional observations from a re-analysis of the deposited data

Results flagged for a closer look

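The daf-2 difference depended on the spr labels by the interaction test of edgeR for 27 of the 27 tested msp genes, with 14.1% of all genes called in that direction. On the log2 scale the interaction was 5.05 for msp-10, 4.70 for msp-81, 3.07 for msp-113 and 2.00 for msp-31. Single outlying libraries were not tested in these groups of 3.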

How the results depend on the processing

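The direction of the msp differences was the same in every setting run, for the family sum, the members' medians and the counts. The number of members called was 27 in each comparison other than triple-labelled against double-labelled worms, where it was 20. A test against a 1.5-fold change left 8 of those 20, and 25 to 27 in each of the other comparisons and the interaction. Leaving out each library in turn gave 27 to 27 members for daf-2 against N2, triple-labelled against N2 and the interaction, 25 to 27 for triple-labelled against daf-2, 26 to 27 for double-labelled against N2, and 14 to 22 for triple-labelled against double-labelled. The members' median then ranged from -5.39 to -4.86 for daf-2 against N2 (-5.39 without daf-2 replicate 1), 2.51 to 2.98 for triple-labelled against daf-2, -1.65 to -1.34 for double-labelled against N2, -1.13 to -0.74 for triple-labelled against double-labelled, -2.59 to -2.33 for triple-labelled against N2 and 4.06 to 4.55 for the interaction. As log2 ratios, the family sum ranged from -5.12 to -4.76, 2.33 to 2.75, -1.74 to -1.44, -1 to -0.58 and -2.57 to -2.15 over the 5 comparisons in that order. Same-numbered libraries did not deviate together (median residual correlation 0.00033, from -0.15 to 0.11 over 18 pairs). Whether they were prepared together cannot be told from this. With the number as a replicate block, 27 members were called in each comparison but triple-labelled against double-labelled, where 22 were. DESeq2 called 22 there and 27 to 29 of the 31 members elsewhere. Scaling to total counts moved the median of all genes in the interaction to 0.13 and the share of calls that were higher to 35% in double-labelled against N2 (53% with TMM), 68.1% in triple-labelled against double-labelled (52.3%) and 77.5% in the interaction (49.2%). The msp counts there were 27, 19 and 27. A sum over copies with an identical protein was not run, since no protein sequences were used here. The sums without msp-31 and by chromosomal cluster were added after the data were seen. Low counts limit single members in daf-2 worms, where the median member was at 0.178 CPM.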

Other observations

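Some abundant genes outside the family had levels that ran parallel to it. The search covered 5237 genes outside the family with a gene name and a mean of at least 3 on the log2 CPM scale. Genes under that level, the sperm gene ssq-3 among them, were not searched. Those with the highest correlation to the log2 family sum over the 12 libraries included the cuticle collagen genes col-139 (Pearson r 0.9719), col-81 (0.9518) and col-129 (0.9493). The others were the aquaporin gene aqp-4 (0.9636), unc-112, which encodes a kindlin of muscle attachments (0.9545), and ifb-2, which encodes an intermediate filament of the intestine (0.9509). The 12 libraries fall into 4 genotypes, so these values describe a similar run of group levels and carry no test. The order of groups was not shared by ifb-2, at 71.9 ± 6.62 CPM in triple-labelled and 71.3 ± 0.763 CPM in double-labelled worms. col-139 was at 66.7 ± 14.4 CPM in triple-labelled, 27.1 ± 8.40 in daf-2, 79.1 ± 14.6 in double-labelled and 116 ± 19.7 CPM in N2 worms (SD, n = 3). aqp-4 had the same order over a narrower range, with 9.08 ± 0.543, 6.80 ± 0.267, 12 ± 0.426 and 16 ± 0.953 CPM in those genotypes. col-81 was at 14.4 ± 2.55 CPM in triple-labelled, 5.50 ± 1.70 in daf-2, 53.9 ± 9.10 in double-labelled and 81.0 ± 12.1 CPM in N2 worms.

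Of 5 tested markers of the somatic gonad, where sperm are stored, fkh-6 and sth-1 were the ones called, and both were highest in triple-labelled worms. Both were called higher than in daf-2 there and none of the 5 lower, with 26.1% of all genes higher and 20.9% lower. fkh-6, which encodes a forkhead factor of the gonad, had 5.25, 4.71 and 5.42 CPM in triple-labelled, 3.3, 3.62 and 3.98 in daf-2, 2.76, 3.37 and 2.63 in double-labelled and 2.58, 2.77 and 3.22 CPM in N2 libraries. It rose by 0.47 ± 0.121 in triple-labelled against daf-2 (edgeR adjusted p = 0.00348), by 0.87 ± 0.124 in triple-labelled against N2 (edgeR adjusted p = 2.4e-06) and by 0.40 ± 0.130 in daf-2 against N2 (edgeR adjusted p = 0.012). sth-1, a spermatheca gene, had 4.61, 3.83 and 4.72 CPM in triple-labelled, 2.98, 2.44 and 2.91 in daf-2, 3.18, 3.46 and 2.81 in double-labelled and 3.15, 2.96 and 2.42 CPM in N2 libraries. It rose by 0.62 ± 0.132 in triple-labelled against daf-2 (edgeR adjusted p = 0.000655) and was at 0.02 ± 0.140 in daf-2 against N2 (edgeR adjusted p = 0.934). None of the 5 was called by edgeR in double-labelled against N2, nor had any an unadjusted p below 0.05 there.

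Neuron markers were higher in triple-labelled than in daf-2 worms for 5 of the 6 tested and lower for 1, with 26.1% of all genes higher and 20.9% lower. Relative to N2, 3 of the 6 were higher in double-labelled worms, with 24.6% of all genes higher, and none was called lower, with rab-3 at -0.33 ± 0.136 (edgeR adjusted p = 0.0542). Of the 6 body wall muscle markers, edgeR called none in triple-labelled against daf-2 worms, and unc-54 had an unadjusted p below 0.05 (0.0303). Intestine markers were called higher for 2 and lower for 2 of 7 in that comparison, near the 26.1% and 20.9% of all genes.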
